A study of Homo sapiens with 3 samples.

Results

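The 9 genes described here encode enzymes that reduce or oxidise reactive carbonyls and quinones, together with enzymes linked to the supply of NADPH: AKR1C1, AKR1C2, AKR1C3, AKR1B10, ALDH3A1, NQO1, PGD, TALDO1 and ME1. They were chosen by name, as the rows of the deposited count table whose Ensembl identifiers carry these symbols, and the nearly identical AKR1C copies were also summed. They are 9 of 58735 genes in the table, and all 9 were among the 14619 genes that reached 1 CPM, counts divided by scaled library size, in 1 library or more.

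The cells were HaCaT, a line of immortalised human keratinocytes labelled WT, and RNA-seq was made of 3 groups with 1 library each. The S1650b group received S1650b, a particulate matter sample, at 50 µg/mL, the CB group carbon black at 25 µg/mL, while the control group was labelled as exposed to none. All 3 labels give 24 h, and the particles were applied in medium without serum after growth in medium with serum. The labels used here name no vehicle for the control. Material and dose differ together between S1650b and CB and cannot be told apart. With 1 library per group there is no replicate check on any difference, and no P value is given.

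Aldo-keto reductases pass hydride from NADPH to aldehydes and ketones and so turn them into alcohols. NQO1 reduces quinones to hydroquinones, and ALDH3A1 works in the other direction, oxidising aldehydes to acids. The pentose phosphate pathway and malic enzyme return NADP to NADPH in the cytosol. Several of these genes are textbook targets of NRF2, a transcription factor held back by KEAP1, while NQO1 and ALDH3A1 also belong to the gene battery of AHR, the aryl hydrocarbon receptor.

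The libraries held 20417744 (S1650b), 20946139 (CB) and 20658247 (control) gene counts. Each fold below is a ratio of scaled CPM, with an exact 95% interval (Clopper-Pearson, conditional on the summed count) that covers counting error only; PCR reads without molecular identifiers are not independent molecules. The size rule for calling a gene higher or lower is a fold of 1.5 or more in that direction, with the whole interval on the same side of 1. All 10 keratinocyte markers examined had counts in every library, with summed levels of 2510 FPKM in S1650b, 5170 in CB and 5350 in the control. They moved both ways: KRT5 was at 513, 1440 and 1620 FPKM and KRT14 at 608, 1790 and 1770 in S1650b, CB and the control, while DSG3 was at 21.5, 9.18 and 12.3 and CDH1 at 69.5, 45.2 and 53.5. The 5 melanocyte markers summed to 1.67, 1.62 and 1.96 FPKM, with TYR and DCT at 0 counts and MITF and PMEL above 0 in every library. The 3 endothelial markers summed to 6.98, 4.52 and 8.72 FPKM, mostly CDH5, and the 3 immune markers to 0.0204, 0.0183 and 0, with CD68 at 0 counts throughout. The 6 fibroblast markers summed to 1.48, 3.86 and 9.69 FPKM in S1650b, CB and the control. They also moved both ways: DCN was at 0.142, 0.618 and 4.19 FPKM and COL3A1 at 0.541, 2.58 and 4.73. LUM was at 0.0885, 0.0518 and 0.151, and COL1A1 at 0.705, 0.56 and 0.617. COL1A2 and PDGFRA had 0 counts in the control and a few in S1650b and CB. The part of these marker levels in the results was not tested, and in bulk RNA fewer cells of a type and less RNA per cell cannot be told apart. In S1650b against control the fold of a gene also moved with its exon length and base composition: with genes cut into 8 equal bins, the median log2 fold was −0.31 for the shortest exons, 0.48 for the longest, 0.59 for the lowest GC and −0.43 for the highest GC. In CB against control these medians were −0.10 and 0.00 for length and 0.05 and −0.08 for GC. The part of these trends in the S1650b folds cannot be told apart from the treatment, so folds of the 9 genes with both trends removed are given wherever they change a call.

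The AKR1C genes lie side by side on chromosome 10 and are close copies, which bears on how reads are shared out between them. Their start regions show this likeness, from 250 bases before to 50 bases after the RefSeq start (GRCh38.p14). AKR1C1 is at chr10:4963165-4963464 on the plus strand and AKR1C2 at chr10:5003808-5004107 on the minus strand. Capitals mark bases that differ from the other sequence within the aligned stretch.
AKR1C1: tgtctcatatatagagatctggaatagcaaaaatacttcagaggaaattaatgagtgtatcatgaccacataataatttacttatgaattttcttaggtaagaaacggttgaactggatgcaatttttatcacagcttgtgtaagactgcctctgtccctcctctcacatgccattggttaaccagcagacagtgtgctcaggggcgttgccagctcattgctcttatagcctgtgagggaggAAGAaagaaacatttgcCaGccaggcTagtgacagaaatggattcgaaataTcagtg
AKR1C2: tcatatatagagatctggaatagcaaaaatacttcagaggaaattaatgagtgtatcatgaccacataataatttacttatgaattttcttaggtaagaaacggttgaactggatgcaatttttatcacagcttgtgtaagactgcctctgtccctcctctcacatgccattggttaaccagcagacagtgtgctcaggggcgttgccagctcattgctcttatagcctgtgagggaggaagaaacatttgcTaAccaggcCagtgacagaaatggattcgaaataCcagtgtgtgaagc
Over the 292 aligned bases 288 were identical (98.6%), and AKR1C1 has an additional run of 4 bases. The AKR1C3 window matched that of AKR1C1 at 233 of 287 bases (81.2%). The coding sequences are also close: AKR1C1 and AKR1C2 were identical at 953 of 972 bases (98%), while AKR1C3 matched AKR1C1 at 92.1% and AKR1C2 at 91.6%. Of all 50-base windows of coding sequence, 54.5% of those of AKR1C1 and 57.2% of those of AKR1C2 occurred unchanged in another annotated gene, against 23% for AKR1C3. With windows of 150 bases these shares were 4.98, 7.65 and 2.67%. Read length and the handling of reads that match several genes are not stated in the labels used here, and the division of counts between AKR1C1 and AKR1C2 is uncertain, and their sum is given beside each.

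Promoter windows of RefSeq were matched for 7 of the 9 genes, as 8 windows because AKR1C3 has 2 starts; AKR1B10 and ALDH3A1 had none. They were searched on both strands for the core of the antioxidant response element, the NRF2 motif (TGACNNNGC), for the AP-1 motif (TGACTCA) and for the core of the xenobiotic response element, the AHR motif (GCGTG). The ME1 and PGD windows are shown because they were the windows of these genes with the antioxidant element core, which capitals mark. ME1 is at chr6:83431002-83431301 on the minus strand and PGD at chr1:10398814-10399113 on the plus strand.
ME1: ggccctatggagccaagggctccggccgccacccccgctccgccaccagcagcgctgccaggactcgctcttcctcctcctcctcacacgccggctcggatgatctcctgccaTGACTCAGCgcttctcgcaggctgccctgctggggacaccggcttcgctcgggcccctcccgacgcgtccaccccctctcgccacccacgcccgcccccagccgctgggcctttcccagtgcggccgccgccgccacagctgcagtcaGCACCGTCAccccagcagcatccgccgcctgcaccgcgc
PGD: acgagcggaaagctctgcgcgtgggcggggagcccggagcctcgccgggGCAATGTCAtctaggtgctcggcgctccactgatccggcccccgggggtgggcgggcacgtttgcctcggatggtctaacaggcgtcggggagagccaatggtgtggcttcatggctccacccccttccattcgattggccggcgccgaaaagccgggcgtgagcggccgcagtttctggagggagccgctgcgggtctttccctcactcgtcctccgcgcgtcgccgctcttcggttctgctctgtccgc
The antioxidant element core was present in 13.3% of 35116 RefSeq promoter windows. ME1 held it in the forward direction at position −137 from the start (TGACTCAGC), where it overlaps an AP-1 motif, and again in reverse just after the start. PGD held it in reverse (TGACATTGC) at position −201. The AP-1 motif was present in 4.95% of all windows and, of these genes, in that of ME1. GCGTG was present in 36.5% of all windows and in those of ME1, PGD and NQO1. A motif match is a description of these letters and not a site of binding. Bases outside the windows, from 250 before to 50 after the start, were not searched. A window without a motif therefore does not show that the gene lacks one.

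**Figure D1:**
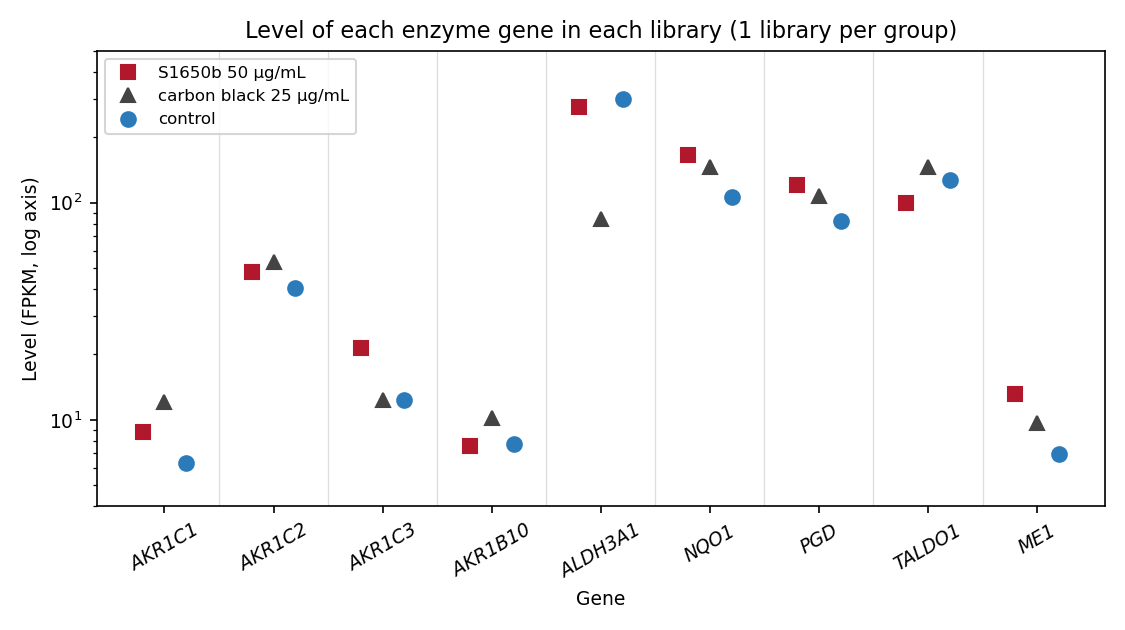
Level of each of the 9 genes (deposited FPKM, log axis) in the S1650b, carbon black and control libraries, 1 point per library. ALDH3A1 stands at 274 FPKM in S1650b and 300.4 in the control, against 83.8 in carbon black; the other genes lie closer together.

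Compared per length, ALDH3A1, NQO1, TALDO1 and PGD were the abundant members, and AKR1C1, AKR1B10 and ME1 the scarce ones, as the plot of levels by library shows. The length is that of all annotated exons of a gene, 8765 bases for AKR1C1 and 1744 for AKR1B10, and the order depends on it. By counts AKR1C1 lay above ME1 and AKR1B10 in every library, with 1096 in the control against 464 and 267. ALDH3A1 ranked 104 in S1650b, 623 in CB and 145 in the control among all genes by FPKM. NQO1 ranked 178, 322 and 430 in the same libraries. The 9 genes together summed to 759.6 FPKM in S1650b, 580.0 in CB and 689 in the control. The 4 aldo-keto reductases summed to 85.4, 88.0 and 66.7 FPKM.

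Against the control, 3 of the 9 genes were higher in S1650b (AKR1C3, NQO1 and ME1) and none was lower, where 21.8% of all 14619 genes were higher and 19.6% lower. The median log2 fold of the 9 was 0.48, and that of all genes −0.05. Against the control, 1 gene was higher in CB (AKR1C1) and 1 lower (ALDH3A1), where 4.69% of all genes were higher and 10.7% lower; the median log2 fold was 0.33, against −0.00 over all genes. S1650b against CB gave 2 higher genes (AKR1C3 and ALDH3A1) and none lower, where 26.1% of all genes were higher and 20.7% lower. Counts this small among 9 genes do not set the group apart from these shares. The S1650b and CB comparisons share the control library.

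**Figure D2:**
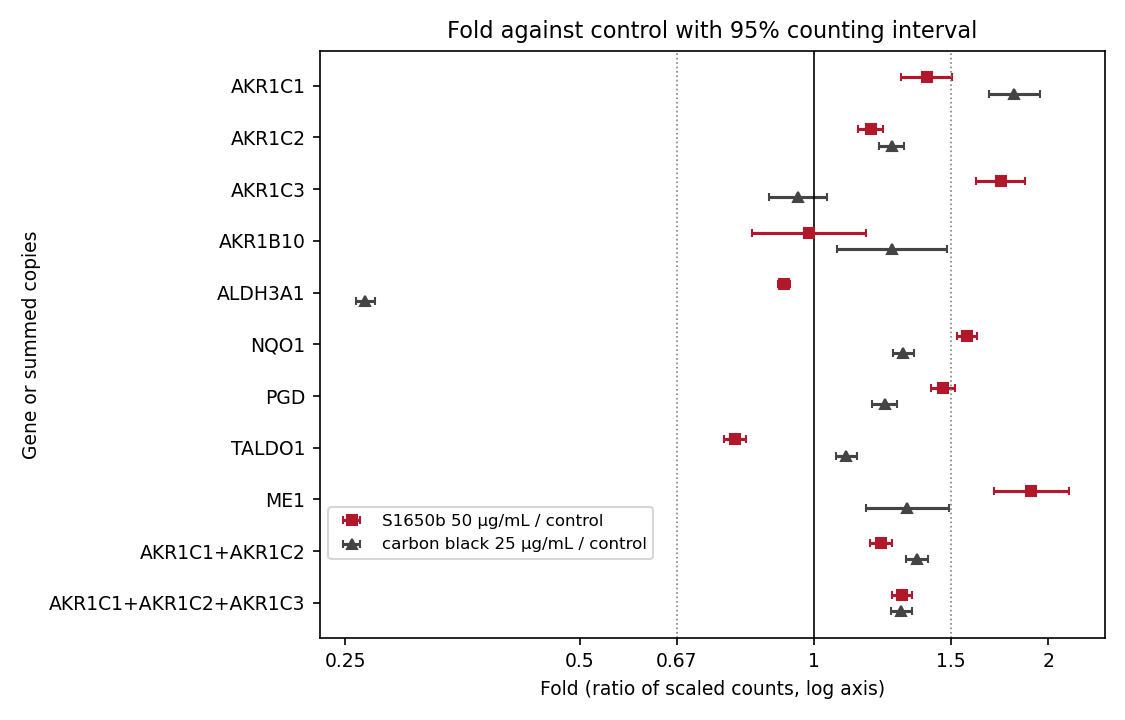
Fold of each gene, and of the summed AKR1C copies, in S1650b and in carbon black over the control (log axis); bars are 95% counting intervals and dotted lines the 1.5-fold rule. ALDH3A1 in carbon black lies at 0.265, and ME1, AKR1C3 and NQO1 in S1650b lie beyond 1.5.

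Among the aldo-keto reductases, AKR1C3 was higher in S1650b and AKR1C1 in CB. AKR1C1 (ENSG00000187134, GENCODE 29 on GRCh38, chr10:4963253-4983283) inactivates progesterone by reducing its side chain ketone. It had 1737 counts in S1650b, 2027 in CB and 1096 in the control, or 77.8, 100.8 and 55.7 CPM. The library from CB was the highest and the control the lowest. The fold was 1.40 in S1650b (1.29 to 1.51), which misses the size rule, and 1.81 in CB (1.68 to 1.95), the 380th highest of 14619. With both trends removed the S1650b fold was 0.887, on the other side of 1, and the CB fold was 1.76. The length used for the trend is that of all annotated exons, 8765 bases for AKR1C1. With the length trend alone removed the S1650b fold was 1.08. S1650b over CB was 0.771 (0.723 to 0.823), not past the rule, and 0.519, past it, with both trends removed.

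AKR1C2 (ENSG00000151632, chr10:4987400-5018031), which reduces dihydrotestosterone, was the most abundant of the AKR1C genes. It had 6946 counts in S1650b, 6652 in CB and 5170 in the control, or 47.7, 53.5 and 40.4 FPKM. Folds were 1.18 in S1650b (1.14 to 1.23) and 1.26 in CB (1.21 to 1.31), neither past the rule, and the S1650b fold was 0.809 with both trends removed. The summed AKR1C1 and AKR1C2 counts, which do not depend on how reads were divided between the pair, were 8683 in S1650b, 8679 in CB and 6266 in the control. Their fold was 1.22 in S1650b (1.18 to 1.26) and 1.36 in CB (1.31 to 1.40). Neither passed the size rule, so the higher AKR1C1 in CB is a call on 1 copy of the pair.

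AKR1C3 (ENSG00000196139, chr10:5035354-5107686) reduces androstenedione to testosterone and forms prostaglandin F. It had 2175 counts in S1650b, 1075 in CB and 1102 in the control, or 97.4, 53.5 and 56.0 CPM. S1650b stood apart and the other libraries were close together. The fold was 1.74 in S1650b (1.62 to 1.87) and 0.955 in CB (0.877 to 1.04), and S1650b was 1.82-fold above CB (1.69 to 1.96). Genes of like GC had a median log2 fold of 0.43 in S1650b; with both trends removed the fold of AKR1C3 was 1.36 and no longer passed, while against CB it was 1.53 and did.

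**Figure D3:**
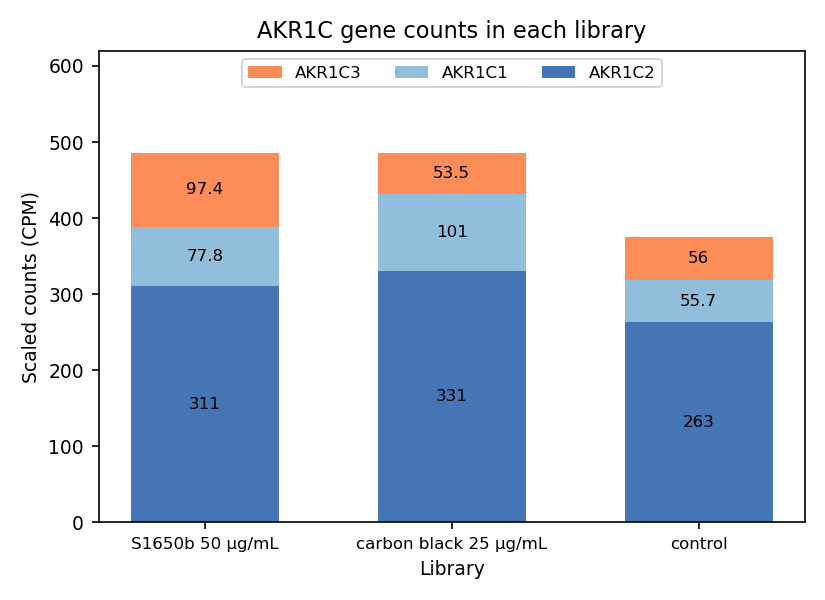
Scaled counts (CPM) of AKR1C2, AKR1C1 and AKR1C3, stacked per library. AKR1C3 takes 97.4 CPM in S1650b, 53.5 in carbon black and 56.0 in the control, while the 3 genes together reach 486 CPM in S1650b, 485 in carbon black and 375 in the control.

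The mixture of the AKR1C genes differed between libraries, with the total nearly equal in both treated cultures as scaled here. By FPKM, AKR1C3 made up 27.4% of the summed level of the 3 genes in S1650b, 15.8% in CB and 20.8% in the control. AKR1C1 made up 11.3, 15.4 and 10.7%, and AKR1C2 61.3, 68.7 and 68.5%. By counts, AKR1C3 made up 20, 11 and 15%, AKR1C1 16, 20.8 and 14.9%, and AKR1C2 64, 68.2 and 70.2%. The FPKM shares depend on annotated exon lengths of 8765 (AKR1C1), 6461 (AKR1C2) and 4532 bases (AKR1C3). Each of these genes has 972 coding bases. The 3 genes summed had a fold of 1.30 in S1650b (1.26 to 1.34) and 1.30 in CB (1.26 to 1.34). S1650b over CB was 1.00 (0.975 to 1.03), and lay between 0.740 and 1.14 over the 8 scalings and corrections. With both trends removed the fold of the sum was 0.903 in S1650b and 1.26 in CB. AKR1C4, the liver member of the cluster, had 0 counts in all 3 libraries.

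AKR1B10 (ENSG00000198074, chr7:134527592-134541408), which reduces retinaldehyde and aliphatic aldehydes, was a scarce member and was not called in any comparison. It had 299 counts in S1650b, 344 in CB and 267 in the control. Folds were 0.986 in S1650b (0.833 to 1.17) and 1.26 in CB (1.07 to 1.49), and S1650b over CB was 0.782 (0.668 to 0.916). Its coding sequence matches that of AKR1B15 at 93.4%, and AKR1B15 had 4, 7 and 0 counts in these libraries.

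ALDH3A1 (ENSG00000108602, chr17:19737984-19748943, minus strand), which oxidises aromatic and medium-chain aldehydes, showed the widest differences of the 9 genes. It had 24220 counts in S1650b, 6321 in CB and 23322 in the control, or 1084, 314 and 1185 CPM. CB was low and the other libraries were alike. The gene was 3.77-fold lower in CB than in the control (3.67 to 3.88), the 167th lowest of 14619 genes. Among the 449 genes of at least 100 FPKM in the control it was the 3rd lowest, after KRT4 and KRT13, a ranking chosen after its values were seen. In S1650b the fold was 0.915 (0.898 to 0.931), and between 0.913 and 1.20 over the scalings and corrections, never past the rule, and S1650b was 3.45-fold above CB (3.35 to 3.55). The CB fold lay between 0.258 and 0.279 over all 8 scalings and corrections. Exons of an opposite-strand gene, AC005722.3, overlap 2.5% of ALDH3A1, and it had 43, 7 and 15 counts in S1650b, CB and the control. No source used here states whether reads were counted by strand.

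NQO1 (ENSG00000181019, chr16:69706996-69726951, minus strand) was highest in S1650b and lowest in the control. It had 12199 counts in S1650b, 9102 in CB and 6834 in the control, or 166, 145 and 106 FPKM. The fold was 1.57 in S1650b (1.53 to 1.62), past the rule, and 1.30 in CB (1.26 to 1.35), which did not pass. S1650b over CB was 1.21 (1.17 to 1.24). The S1650b call held under every scaling and correction, between 1.57 and 1.81. Exons of AC092115.2 on the opposite strand overlap 17.7% of NQO1, and this gene had 0 counts in every library.

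The NADPH-linked members did not move as a unit. PGD (ENSG00000142657, chr1:10398592-10420144), the second dehydrogenase of the oxidative pentose phosphate branch, had 8063 counts in S1650b, 6107 in CB and 4848 in the control. Its folds were 1.46 in S1650b (1.41 to 1.52) and 1.23 in CB (1.19 to 1.28), neither past the rule. S1650b over CB was 1.19 (1.15 to 1.23). PGD lies close to the rule: its S1650b fold passed by total counts, by upper quartile and with the length trend removed, and with both trends removed it was 1.92, or 1.56 against CB.

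TALDO1 (ENSG00000177156, chr11:747329-765024), the transaldolase of the non-oxidative branch, had 6776 counts in S1650b, 8480 in CB and 7534 in the control. S1650b was lowest and CB highest. Its folds were 0.792 in S1650b (0.766 to 0.819) and 1.10 in CB (1.07 to 1.14), and S1650b over CB was 0.719 (0.696 to 0.743). None passed the rule, and with both trends removed the S1650b fold was 1.09.

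ME1 (ENSG00000065833, chr6:83210389-83431071, minus strand), cytosolic malic enzyme, was called higher in S1650b, where its fold of 1.90 was above those of the other 8 genes; with both trends removed PGD and NQO1 lay above it. It had 1002 counts in S1650b, 625 in CB and 464 in the control, or 13.2, 9.63 and 6.95 FPKM. The levels were ordered S1650b, CB, control. The S1650b fold had an interval of 1.7 to 2.13 and passed the rule. The CB fold was 1.32 (1.17 to 1.49) and did not. S1650b over CB was 1.44 (1.30 to 1.60), which passed by total counts, by upper quartile and with the length trend removed. With both trends removed the S1650b fold was 1.59 and still passed.

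**Figure D4:**
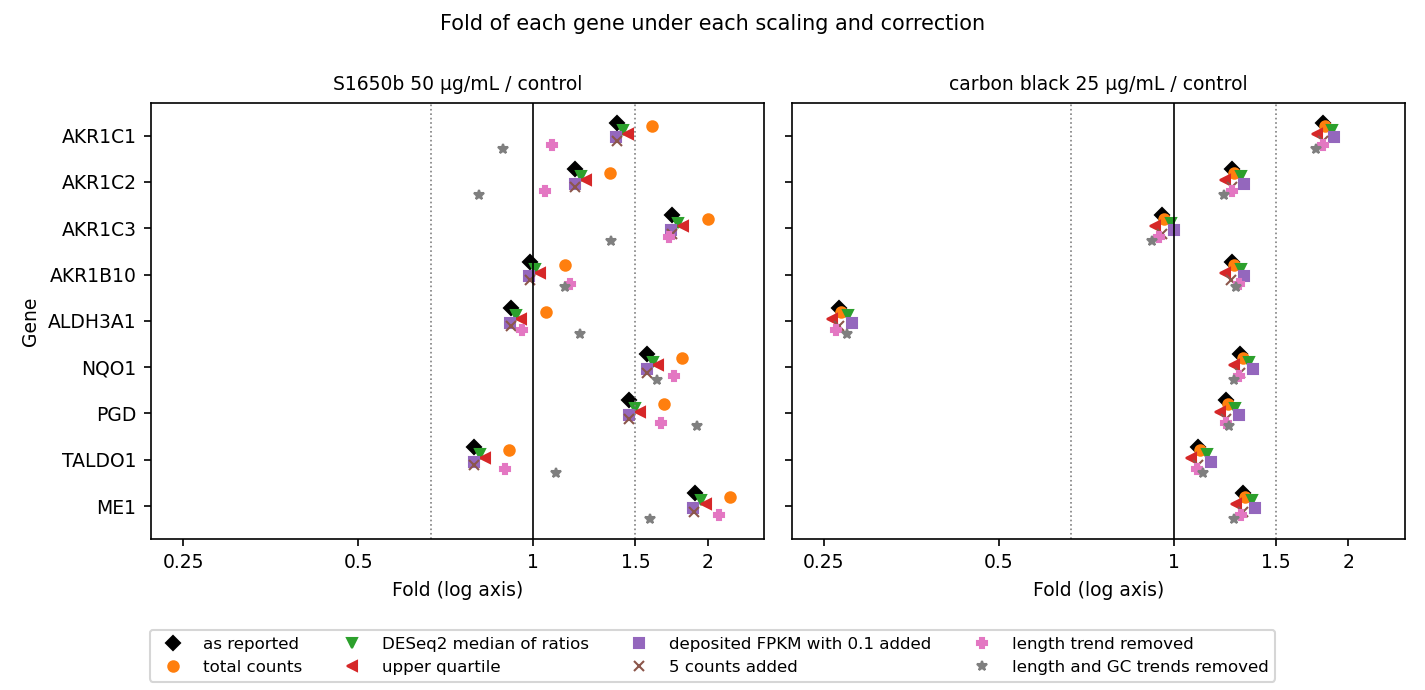
Fold of each gene over the control in S1650b and in carbon black under 8 scalings and corrections (log axis; dotted lines mark the 1.5-fold rule). The S1650b folds spread more, AKR1C1 between 0.887 and 1.60, than the carbon black folds, where ALDH3A1 stays between 0.258 and 0.279.

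Related enzymes came from lists that include the 9 genes, and each count of a list stands beside the share of all genes called the same way. In S1650b, PRPS2, a pentose phosphate list gene that makes the ribose precursor of nucleotides, was lower (0.607). Of 12 measured genes of that list, CB gave 1 higher (PRPS1, 1.61) and none lower, where 4.69% of all genes were higher and 10.7% lower, with a median log2 fold of 0.14 against −0.00 over all genes. The PRPS2 call was lost under total-count scaling (0.697) and with the length trend removed (0.694).

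The list of other genes linked to NADPH and NADP supply gave calls in CB. Being on this list does not show that an enzyme makes NADPH, which was not tested. Of 11 measured genes, 3 were higher in CB and none lower, where 4.69% of all genes were higher and 10.7% lower, with a median of 0.27 against −0.00 over all genes. They were MTHFD2 (2.24, 2.09 to 2.40) and MTHFD1L (1.98), both of mitochondrial one-carbon metabolism, and ME2 (1.51), mitochondrial malic enzyme. MTHFD2 had 1198 counts in S1650b, 2616 in CB and 1144 in the control, and exons of AC006030.1 and SLC4A5 overlap 33.2% of it. ME2 lost its call under upper-quartile scaling (1.47) and with both trends removed (1.49). In S1650b 1 gene was higher (ME1) and 2 lower (IDH2, 0.519, and MTHFD1, 0.630), where 21.8% of all genes were higher and 19.6% lower, with a median of −0.02 against −0.05. IDH2 lost its call with both trends removed (0.719), and MTHFD1 by total counts (0.723). With both trends removed 1 gene was higher and 4 lower, where 14.4% of all genes were higher and 17.8% lower. The median was then −0.49 against −0.07 over all genes. The lower ones were MTHFD1 and also ME2 (0.591), NNT (0.593) and NADK2 (0.623), which had 1.17, 0.984 and 0.875 before.

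Of 15 measured aldehyde dehydrogenases, 7 were lower in CB and none higher, where 10.7% of all genes were lower and 4.69% higher. The median was −0.37 against −0.00 over all genes. The lower count was 7 under all 5 scalings and trend corrections tried for the lists, where 9.43 to 11.7% of all genes were lower. Next to ALDH3A1, ALDH1A3, which makes retinoic acid, had 14535 counts in S1650b, 2722 in CB and 6914 in the control. ALDH1A3 was 2.60-fold lower in CB and 1.85-fold higher in S1650b; exons of other genes overlap 28.6% of it. ALDH1A1 was low in both treated cultures, with 3 counts in S1650b, 8 in CB and 53 in the control, 20.1-fold lower in S1650b (6.50 to 100.4) and 6.77-fold lower in CB (3.20 to 16.5). ALDH3B1 had folds of 0.640 in S1650b and 0.581 in CB, both called lower. In S1650b it lost the call by total counts (0.735), by upper quartile (0.6673) and with both trends removed (0.705). ALDH6A1, of valine breakdown, was 2.06-fold lower in CB. In S1650b 1 aldehyde dehydrogenase was higher and 6 lower, where 21.8% of all genes were higher and 19.6% lower, with a median of −0.42 against −0.05. Besides ALDH1A1 and ALDH3B1, ALDH16A1 (2.17-fold) and ALDH3B2 (4.70-fold on 22 counts against 91) were among those lower. By total counts 2 were higher and 3 lower, where 29.1% of all genes were higher and 11.8% lower.

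**Figure D5:**
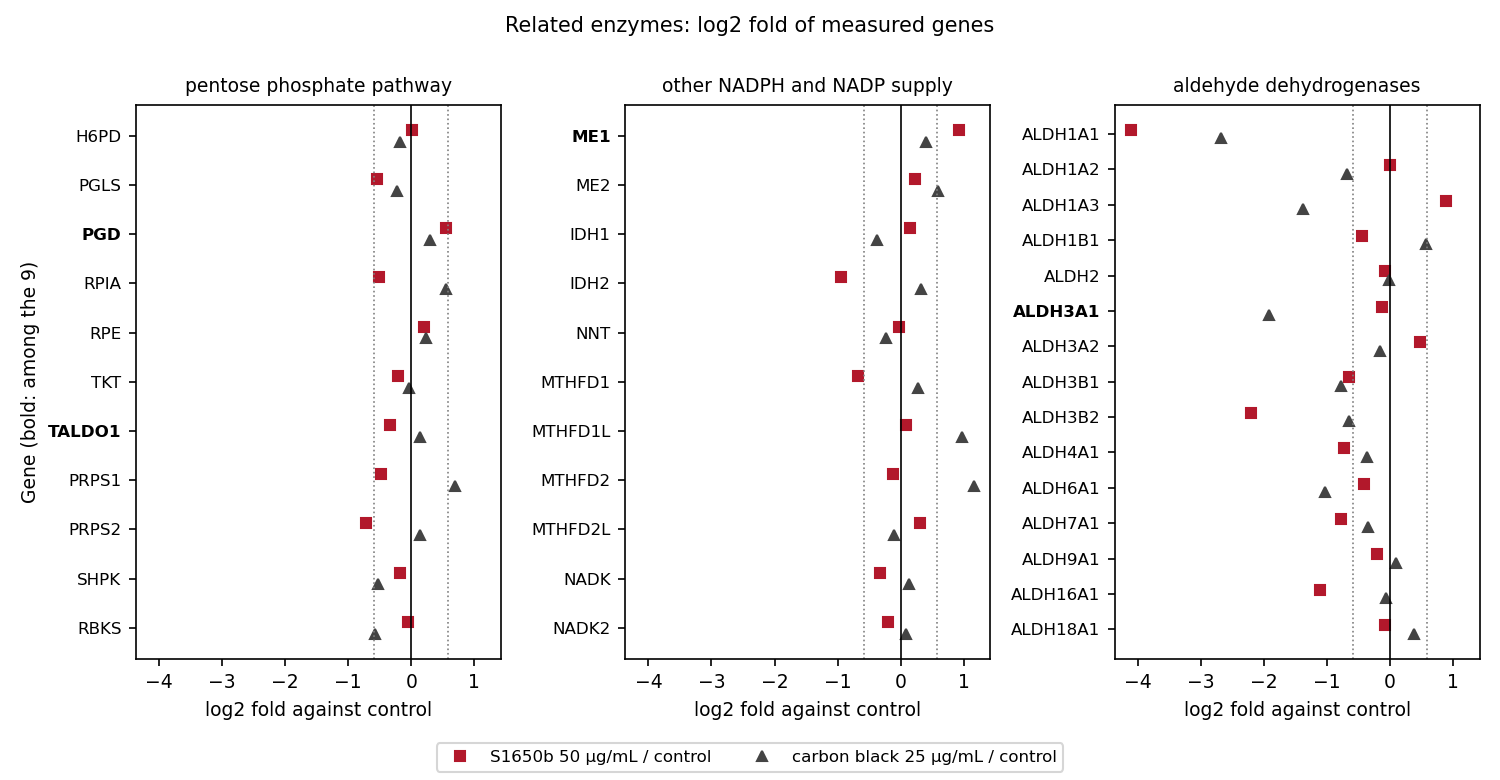
Log2 fold against the control of measured genes of 3 enzyme lists, in S1650b and in carbon black (dotted lines mark the 1.5-fold rule; bold names are among the 9 genes). In carbon black, ALDH3A1, ALDH1A3 and ALDH1A1 lie left of the rule and MTHFD2 and MTHFD1L right of it.

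Of 8 measured aldo-keto reductases, 1 was higher (AKR1C3) and 2 lower in S1650b, near the 21.8% and 19.6% of all genes. The lower ones were AKR1A1 (0.486), the general aldehyde reductase, and AKR7A2 (0.627). Both lost the call with both trends removed, at 0.668 and 0.929. AKR7A2 also lost it by total counts (0.720) and with the length trend removed (0.736). CB gave 1 higher (AKR1C1) and none lower, where 4.69% of all genes were higher and 10.7% lower. Of 27 other carbonyl and quinone reductases, 2 were higher in S1650b (NQO1 and VAT1) and 6 lower, where 21.8% of all genes were higher and 19.6% lower, with a median of −0.30 against −0.05. The lower ones included DHRS9 (0.304) and DHRS11 (0.461), both short-chain reductases, and BLVRB (0.518), biliverdin reductase. With both trends removed 3 were higher and 4 lower, where 14.4% of all genes were higher and 17.8% lower. BLVRB (0.759) was then not among the lower ones. In CB none was higher and 2 lower, where 4.69% of all genes were higher and 10.7% lower: DHRS3 (0.662) and PTGR2 (0.664), neither lower under total-count scaling.

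Of the 13 regulators of NRF2 and AHR, 7 were higher in S1650b and none lower, where 21.8% of all genes were higher and 19.6% lower, with a median log2 fold of 0.70 against −0.05 over all genes. NFE2L2, which encodes NRF2, had 2066 counts in S1650b, 982 in CB and 995 in the control, a fold of 1.83 (1.7 to 1.97). BACH1, a repressor of NRF2 targets, was 2.82-fold higher, TIPARP, an AHR target, 2.92-fold and SQSTM1, which binds KEAP1, 1.77-fold. Exons of other genes overlap 20.9% of NFE2L2 and 22% of SQSTM1. With the length trend removed 4 of the 13 were called higher, where 18.2% of all genes were, with a median of 0.38. SQSTM1, at 1.45, was not among them. With both trends removed 6 were higher, where 14.4% of all genes were, with a median of 0.30. SQSTM1 was then called at 1.80 and BACH1 at 1.73. AHR and CUL3 were called at 1.63 and 1.65 but had 0.973 and 0.860 with both trends removed. In CB none of the 13 passed the rule, where 4.69% of all genes were higher and 10.7% lower, and NFE2L2 had a fold of 0.966. With median-of-ratios scaling 1 was higher in CB, where 5.97% of all genes were. In S1650b against CB 5 were higher, where 26.1% of all genes were, among them AHRR, the AHR repressor (3.53-fold). These are RNA levels and say nothing of protein amount or activity.

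The genes most like each member were found among 9606 protein-coding genes by distance in the log2 folds of S1650b and CB over the control, 3 libraries in all. ALDH3A1 had no gene within 0.1, and its nearest genes included YPEL3 at 0.342 and TRANK1 at 0.346. AKR1C1 had 5 genes within 0.1, closest KRT80 at 0.0288, then ADAMTS12 and GPRIN1. ME1 had 29, led by GLMN, GABBR1 and HSPA4. NQO1 had 56, led by TRAPPC10, NPIPB5 and TRIO. PGD had 70, led by SNX29, SUZ12 and RB1, and AKR1C3 had 86, led by ADAM10, TANC2 and ZMYM5. The rest had 102 (AKR1C2), 106 (AKR1B10) and 295 (TALDO1).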

How the data were processed

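RNA was measured in 3 libraries of HaCaT cells. Per the labels' protocols, RNA was extracted with Trizol and libraries made with a NEBNext Ultra RNA kit. The authors deposited whole-number counts per Ensembl gene, not normalized, and FPKM values, which are counts per exon length and library size by the authors. The deposited FPKM imply the GENCODE 29 exon length within 1% for 10729 of 10729 genes tested. Over the control, they imply a library size of 1.14 in S1650b and 0.972 in CB. By gene counts S1650b was smaller than the control and CB larger. FPKM levels and sums compared between libraries carry the implied sizes. CASAVA 1.7 and the mouse builds mm8 and mm9 are named in the submitters' processing notes, although the identifiers are human; no source used here states the aligner, counter, build or strand use. Annotation was from GENCODE 29, and sequences are from RefSeq (GRCh38.p14).

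Counts were scaled with TMM factors (edgeR 4.0.16 in R 4.3.3) of 1.09 for S1650b, 0.960 for CB and 0.952 for the control. Depth, between 20417744 and 20946139 counts, sets the intervals. Log2 folds used 0.5 added counts. Alternatives were total counts, median of ratios (DESeq2 1.42.0), upper quartile, deposited FPKM with 0.1 added, 5 added counts, lowess removal (span 30%) of the length trend alone or with the GC trend, other filters and other folds. Tables and plots were made with scipy 1.17.1, Biopython 1.88, numpy 2.4.6, matplotlib 3.10.9, statsmodels 0.14.6 and pandas 2.3.3 under Python 3.11.15, and the pipeline was tested on simulated data. The members and lists were chosen with earlier results of these data known. Named genes are the 9 members, from each list and comparison up to 4 others past the 1.5-fold rule with the interval farthest from 1, and the 3 nearest genes per member; not all of these are reported here. ALDH3B1, ME2, NNT, NADK2, VAT1, AHR and CUL3 in S1650b against control were named outside the rule, after their values were seen.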

Additional observations from a re-analysis of the deposited data

How the results depend on the processing

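Each group holds 1 library, so none was left out, and counting error is widest for the scarce genes. No paired analysis was possible because each group holds 1 library. Total-count scaling moved the median log2 fold of all genes to 0.16 in S1650b against control (−0.05 as reported) and to 0.21 in S1650b against CB (0.02 as reported), with 29.1% of genes higher and 11.8% lower (21.8 and 19.6% as reported) and 33.1% and 13.9% (26.1 and 20.7%). The alternatives for the lists were chosen after seeing the data. No called fold of the 9 genes changed sign under any scaling or correction, while those of AHR and CUL3 in S1650b against control did with both trends removed (0.973 and 0.860). The cause of each move was not tested.

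AKR1C1 and AKR1C2 summed, in S1650b against control, had a fold of 1.40 by total counts, 1.27 by upper quartile, 1.05 with the length trend removed and 0.822 with both. Under the same settings, in this order, the 3 AKR1C genes summed had 1.49, 1.35, 1.15 and 0.903. In CB against control the pair had 1.40 by median of ratios and 1.40 by FPKM, and the 3 genes 1.34 by median of ratios. In S1650b against CB the pair had 1.03 by total counts, 0.964 by upper quartile, 0.863 by FPKM, 0.795 with the length trend removed and 0.642 with both. The 3 genes had 1.14 by total counts, 1.07 by upper quartile, 0.913 with the length trend removed and 0.740 with both.

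Members higher in S1650b against control numbered 5 by total counts and 0 at a fold of 2 or 3; in CB against control 0 at either fold; in S1650b against CB 1 at either fold. With the length trend or both trends removed, 1 member, AKR1C1, was lower in S1650b than in CB. Over all genes in S1650b against control, 2107 were higher with both trends removed, 1736 at a fold of 2 and 440 at 3, and 1732 were lower by total counts, 1153 at a fold of 2 and 454 at 3. In CB against control, 429 were higher and 838 lower at 5 CPM, 239 and 814 at a fold of 2, and 83 and 291 at 3. In S1650b against CB, 2296 were higher and 1377 lower at a fold of 2, and 868 and 446 at 3.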
